A study of Mus musculus with 24 samples.

Results

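Iron handling in the neonatal mouse cerebellum was followed through 10 genes that take up, store, export or sense iron: Tfrc, Trf, Steap3, Slc11a2, Fth1, Ftl1, Slc40a1, Cp, Ireb2 and Aco1. They are 10 of the 55416 gene rows in the count table and were picked by name, and all 10 were among the 17736 rows with enough counts to be tested. The set was chosen by its values in the same Ethanol against Vehicle comparison of these libraries, together with what the genes are known to do. Their treatment differences are therefore given as a description with a standard error (SE) and no p-value.

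Poly(A) RNA was sequenced from the cerebellum of 24 C57BL/6J pups, 12 in the Ethanol group and 12 in the Vehicle group. Ethanol pups received 4 g/kg/day of ethanol in intralipid, a fat emulsion, by gavage into the stomach starting on postnatal day 4 (P4), as a model of drinking late in human pregnancy. Vehicle pups received the same emulsion with water in place of the ethanol, and no pups without gavage were sequenced. By the study's methods both sexes were used, and cerebella were taken from saline-perfused pups at P5 or P6, a day past the final dose. The labels give the treatment and an animal number only, so P5 and P6 animals, which differ in the number of doses, were compared together. The labels call the tissue brain.

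Iron reaches most cells bound to transferrin (Trf), which is taken in by the transferrin receptor (Tfrc), reduced in the endosome by Steap3 and passed to the cytosol by Slc11a2 (DMT1). Iron that is not used is held in a shell of ferritin heavy (Fth1) and light (Ftl1) chains, and ferroportin (Slc40a1), the known iron exporter of mammalian cells, releases it with the help of ferroxidases such as ceruloplasmin (Cp). Aco1 and Ireb2 encode the iron regulatory proteins IRP1 and IRP2, which in iron-poor cells bind a hairpin in mRNA, the iron-responsive element. Binding before the coding region holds back translation, and binding after it in Tfrc protects the mRNA from decay, so much of the control over ferritin and ferroportin acts on protein and is not seen in mRNA levels.

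The iron-responsive elements that matched a strict motif are shown because their place before or after the coding region sets how they act. Each is printed 5′ to 3′ as DNA from GENCODE M21 transcripts (GRCm38), with the 6-base loop CAGTGN in capitals.
Fth1, 5′ UTR, chromosome 19: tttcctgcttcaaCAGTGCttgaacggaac
Ftl1, 5′ UTR, chromosome 7: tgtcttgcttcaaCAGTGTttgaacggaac
Slc40a1, 5′ UTR, chromosome 1: ccaacttcagctaCAGTGTtagctaagttt
Tfrc, 3′ UTR, chromosome 16, site 1: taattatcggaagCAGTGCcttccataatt
Tfrc, 3′ UTR, chromosome 16, site 2: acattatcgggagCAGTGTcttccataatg
Tfrc, 3′ UTR, chromosome 16, site 3: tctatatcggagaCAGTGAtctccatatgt
Tfrc, 3′ UTR, chromosome 16, site 4: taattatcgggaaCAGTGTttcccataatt

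The motif searched was a C, then 5 bases, the loop CAGTGN and 5 bases able to pair with the first 5. A match was present in the 5′ UTR of 31 of 20916 genes (0.148%), 3 of them Fth1, Ftl1 and Slc40a1. Read on the other strand, where an RNA hairpin would not form, it was present in 21 genes (0.1%). In 3′ UTRs it was present in 129 of 21039 genes (0.613%, against 0.404% on the other strand), and Tfrc held 4 copies. The ferritin elements were identical at 27 of 30 bases, whereas that of Slc40a1 was identical to each of them at 13 of 30. No match lay in the UTRs of Trf, Steap3, Slc11a2, Cp, Ireb2 or Aco1, which says only that these letters are not there. An element of another form would be missed, so these genes are not thereby placed outside this control.

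Library depth was 26982564 to 38804942 estimated counts in Ethanol libraries and 29039888 to 38696615 in Vehicle libraries. Levels are given as CPM, a gene's count relative to its library's total on one fixed scale, with totals adjusted by the trimmed mean of M-values (TMM). Of 17736 genes tested, 1608 were higher and 1028 lower in Ethanol (edgeR quasi-likelihood test, adjusted p under 0.05), and the median log2 fold change over all genes was -0.01. Under upper-quartile scaling the split was 1373 higher and 1396 lower. Transthyretin (Ttr), the main product of the choroid plexus, was at 1.15 to 3.57 CPM in 4 libraries (Ethanol X4568 and X4766, Vehicle X4761 and X4770) and at 322 CPM or more in the other 20. The animal numbers form 6 stretches of close numbers, called runs here, each with 2 Ethanol and 2 Vehicle animals. By the study's methods the sequenced pups came from 6 litters, each giving 2 pups to either treatment, which matches the runs in number. Which animal belongs to which litter is not given in the labels, so a run is not called a litter here.

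The most marked difference among the 10 genes was in the export gene Slc40a1, while Cp, also of export, had a log2 fold change of 0.22 (SE 0.13). Slc40a1 averaged 26.5 CPM in Ethanol cerebella and 34.7 CPM in Vehicle cerebella, a log2 fold change of -0.39 (SE 0.07, n = 12 each). The ferritin chains Fth1 and Ftl1 differed by 0.12 (SE 0.05) and 0.09 (SE 0.04), and the uptake genes Tfrc and Slc11a2 by -0.03 (SE 0.06) and 0.00 (SE 0.03). Of the 10, 1 was past the test threshold as higher (Ireb2) and 1 as lower (Slc40a1), where 9.07% and 5.8% of all genes tested were, or 14.9% in either direction. The genes were chosen with this contrast in view, so nothing is read from that count. The same holds for the calls of single members in the alternative settings below, which reuse these libraries. Their median log2 fold change was 0.04. In bulk tissue fewer cells of a type and less RNA per cell cannot be told apart.

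**Figure D1:**
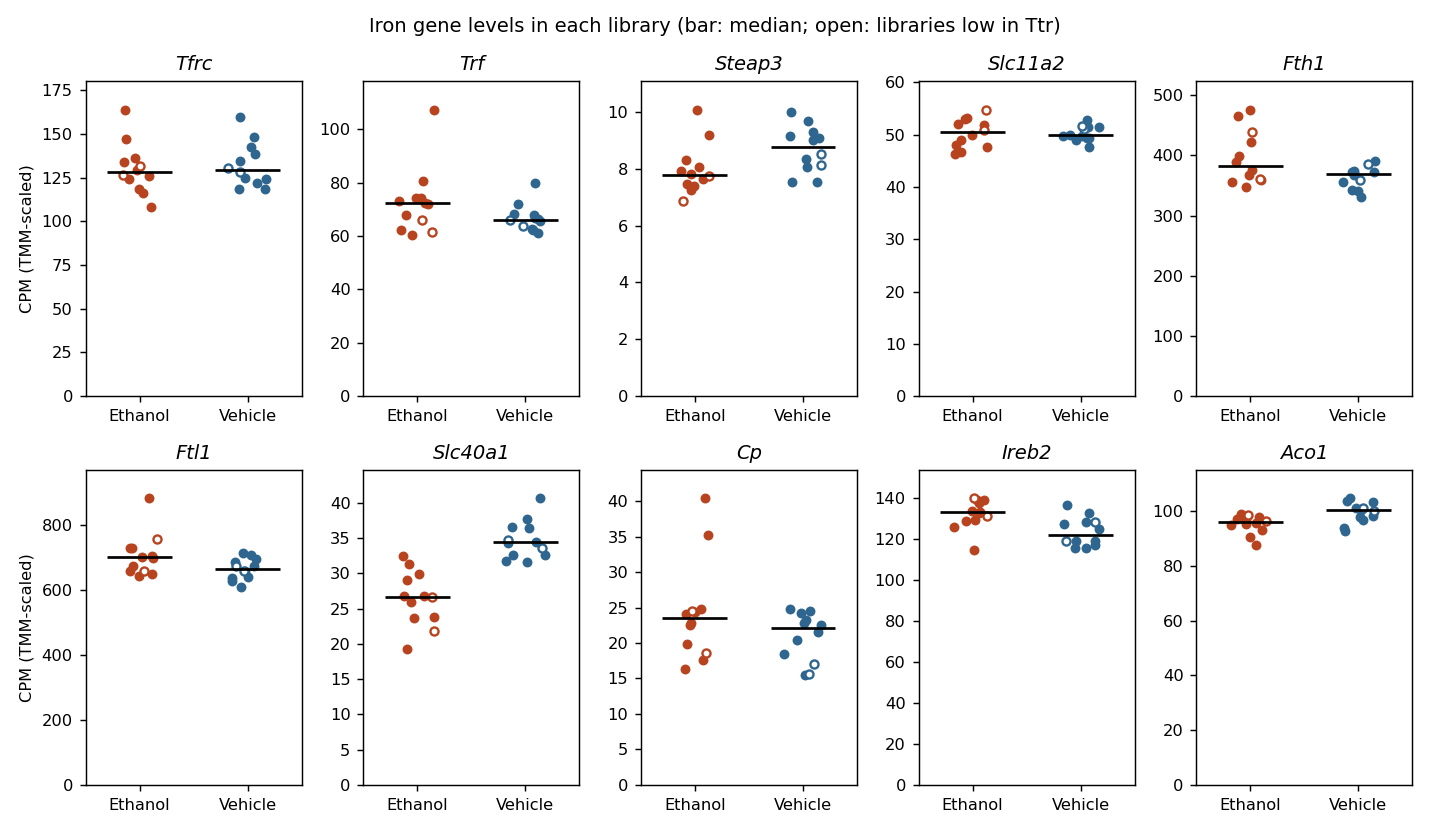
CPM (TMM-scaled, axes from 0) of the 10 genes in each of 12 Ethanol (left) and 12 Vehicle (right) libraries, with bars at the medians and open circles for the 4 libraries low in Ttr. Slc40a1 lay between 19.2 and 32.5 CPM in Ethanol and between 31.6 and 40.6 CPM in Vehicle, a narrow overlap. The ranges of the other 9 genes overlapped more, least in Aco1, where 7 of 12 Vehicle libraries were above the Ethanol range.

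Per kilobase of exon, a rough scale for comparing genes, the storage genes had the highest levels. Ftl1 had a median of 723 CPM per kb in Ethanol and 687 in Vehicle, and Fth1 had 246 in Ethanol and 237 in Vehicle, with no overlap between the 2 genes. A middle group followed in which neighbours did not differ beyond their spread, with Ethanol medians of 26.3 CPM per kb for Trf, 25.1 for Aco1, 24.6 for Tfrc and 23.0 for Ireb2. Slc11a2 had 8.80 CPM per kb in Ethanol and 8.70 in Vehicle, and Slc40a1 had 7.93 in Ethanol and 10.2 in Vehicle. In Vehicle every library had more Slc40a1 per kb (9.37 to 12.1) than any had Slc11a2 (8.31 to 9.20), whereas in Ethanol the ranges overlapped (5.70 to 9.64 for Slc40a1, 8.07 to 9.55 for Slc11a2). Cp (4.05 in Ethanol, 3.80 in Vehicle) and Steap3 (1.38 in Ethanol, 1.55 in Vehicle) were the lowest. Lengths were merged exons of GENCODE M21, which need not be the annotation behind the counts or the transcripts expressed. Close orders, such as that of Slc40a1 and Slc11a2 in Vehicle, could change with the lengths used.

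Among uptake genes, Tfrc, the receptor through which cells take in transferrin, had 108, 128 and 164 CPM (lowest, median and highest) in Ethanol and 118, 129 and 160 CPM in Vehicle. The groups overlapped almost fully, and the log2 fold change was -0.03 (SE 0.06, n = 12 each). Within runs the difference was negative in 5 of 6 and lay between -0.10 and 0.17, and over libraries left out in turn the log2 fold change ranged from -0.07 (without Ethanol X4760) to 0.00 (without Vehicle X4768).

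Trf, the carrier of iron in plasma, which oligodendrocytes and choroid plexus make in brain, had 60.5, 72.3 and 107 CPM in Ethanol and 61.0, 66.2 and 79.9 CPM in Vehicle. A single library, Ethanol X4760, stood above the rest, with the next Ethanol library at 80.7 CPM. Ethanol over Vehicle, the log2 fold change was 0.12 (SE 0.07), and 0.05 without that animal. The maturing oligodendrocyte markers, of which 1 of 11 tested was higher (Bcas1) and none lower, summed to 683, 1235 and 1571 CPM in Ethanol and 694, 1018 and 2075 CPM in Vehicle. Over all genes tested 9.07% were higher and 5.8% lower. The part of oligodendrocytes in the Trf level was not tested.

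Steap3, a ferrireductase of the transferrin pathway, was low, with 6.85, 7.78 and 10.1 CPM in Ethanol and 7.52, 8.77 and 10.01 CPM in Vehicle. The 4 lowest Ethanol libraries were below every Vehicle library, while the highest, Ethanol X4758, was above them all. On the log2 scale Ethanol differed by -0.12 (SE 0.06), and the difference was negative in 5 of 6 runs (-0.34 to 0.07). It was past the threshold in 1 alternative setting, without Ethanol X4758 (-0.17).

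Slc11a2, the divalent metal transporter that moves iron out of the endosome, varied least across Vehicle animals, with a coefficient of variation of 2.83%. It had 46.3, 50.4 and 54.8 CPM in Ethanol and 47.6, 49.9 and 52.7 CPM in Vehicle. The Ethanol range enclosed the Vehicle range, and the log2 fold change was 0.00 (SE 0.03), with 3 runs positive and 3 negative.

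For storage, Fth1, the ferritin chain with ferroxidase activity, had 347, 383 and 476 CPM in Ethanol and 331, 370 and 391 CPM in Vehicle. The 5 highest libraries of all were Ethanol (X4673, X4569, X4568, X4760 and X4765, at 398 to 476 CPM), and the remaining Ethanol libraries lay within the Vehicle range. The log2 fold change was 0.12 (SE 0.05). It was positive in all 6 runs, at 0.29 and 0.21 in runs 1 and 2 and between 0.02 and 0.09 in the other 4. With the runs as a block it was 0.12 as well. It was past the threshold in 2 of 39 alternative settings, that block and the fit without Ethanol X4694.

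Ftl1, the light chain, which aids mineral formation, had 641, 700 and 880 CPM in Ethanol and 609, 665 and 713 CPM in Vehicle. The 4 highest libraries were Ethanol, led by X4673, which also led Fth1. The difference was 0.09 on the log2 scale (SE 0.04), positive in 5 of 6 runs, and 0.05 without X4673. Both ferritin genes have near-identical processed copies. Of the copies in the table the highest was Ftl1-ps1 at a mean of 3.92 CPM, against 685 CPM for Ftl1, and Fth1-ps had 0.03 CPM against 380 CPM for Fth1. How reads were divided among them rests on the authors' estimation, so the ferritin levels carry that uncertainty.

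For export, Slc40a1, ferroportin, had 19.2, 26.7 and 32.5 CPM in Ethanol and 31.6, 34.4 and 40.6 CPM in Vehicle. The groups nearly separated, since 11 of 12 Ethanol libraries were below the lowest Vehicle library and 10 of 12 Vehicle libraries were above the highest Ethanol library, X4758. Means were 26.5 ± 3.91 CPM in Ethanol and 34.7 ± 2.68 CPM in Vehicle (SD, n = 12 each). The log2 fold change was -0.39 (SE 0.07), a fold of 0.762. It was negative in all 6 runs, at -0.75 in run 1, which holds the 2 lowest Ethanol libraries (X4569 and X4568), and between -0.43 and -0.23 in the others. Without run 1 it was -0.33, and over all 39 alternative settings it lay between -0.43 and -0.33.

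Slc40a1 is known from endothelial cells, macrophages and glia, and markers of these cells differed between treatments too. Of 10 endothelial genes, 4 were lower (Tie1 at -0.23, Cdh5 at -0.24, Pecam1 and Kdr) and Ly6c1 was higher at 0.60, and their sum was 408, 445 and 475 CPM in Ethanol against 446, 476 and 510 CPM in Vehicle. Pecam1 and Kdr were at -0.16 and -0.18, and the 5 that did not pass lay between -0.28 (Slco1a4) and 0.19 (Slc2a1). Of 10 microglial genes, 4 were higher, with Fcrls, C1qa and Trem2 among them, and P2ry12 was lower. The 5 that did not pass lay between -0.002 (Csf1r) and 0.17 (Aif1). The microglial sum was 196, 219 and 299 CPM in Ethanol and 176, 192 and 247 CPM in Vehicle. Of 6 border macrophage genes, 3 were higher (Cbr2, F13a1 and Mrc1) and none lower, with sums of 37.5, 57.9 and 84.4 CPM in Ethanol and 33.8, 44.6 and 51.8 CPM in Vehicle. None of these genes was at 0 in any library. Over all genes tested 9.07% were higher and 5.8% lower. The part of cell numbers in the Slc40a1 difference was not tested.

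Cp, a copper ferroxidase that astrocytes hold at their surface, varied most, with 16.4, 23.5 and 40.4 CPM in Ethanol and 15.5, 22.1 and 24.8 CPM in Vehicle. The groups overlapped apart from Ethanol X4760 at 40.4 CPM and X4569 at 35.2 CPM, while X4674 exceeded the Vehicle range by little. As a log2 fold change this was 0.22 (SE 0.13), and 0.12 without X4760. Within runs it lay between -0.18 and 0.56, with 4 positive and 2 negative. Of 8 astrocyte and Bergmann glia genes, 4 were higher (Gfap at 0.99, Slc1a2, Aldoc and Aqp4) and Gdf10 was lower. The 3 that did not pass lay between -0.09 (Aldh1l1) and 0.06 (S100b). Over all genes tested 9.07% were higher and 5.8% lower. The sums of this list were 3442, 3852 and 4107 CPM in Ethanol, highest in X4760, and 3065, 3350 and 3792 CPM in Vehicle. Choroid plexus also expresses Cp, and none of 12 choroid genes was past the test in either direction, their sum being 46.0, 2230 and 5479 CPM in Ethanol and 35.4, 2930 and 5492 CPM in Vehicle. In the libraries low in Ttr, Cp was at 18.5 and 24.5 CPM in Ethanol and at 15.6 and 17.1 CPM in Vehicle. The part of either cell type was not tested.

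For regulation, Ireb2, which encodes IRP2, the regulatory protein destroyed when iron is plentiful, had 114, 133 and 140 CPM in Ethanol and 115, 122 and 137 CPM in Vehicle. The ranges overlapped, yet 11 of 12 Ethanol libraries were above the Vehicle median, X4673 being the exception. The log2 fold change was 0.09 (SE 0.03), positive in all 6 runs (0.05 to 0.17). It was past the threshold in 16 of 39 alternative settings.

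Aco1, which encodes IRP1, an aconitase that binds RNA once it loses its iron-sulfur cluster, ran the other way. It had 87.5, 96.0 and 99.0 CPM in Ethanol and 92.6, 100 and 105 CPM in Vehicle. No Ethanol library reached the Vehicle median and 7 of 12 Vehicle libraries were above the highest Ethanol library. The log2 fold change was -0.06 (SE 0.02), negative in all 6 runs (-0.09 to -0.03), and it was past the threshold in 5 of 39 alternative settings, the block on runs among them.

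**Figure D2:**
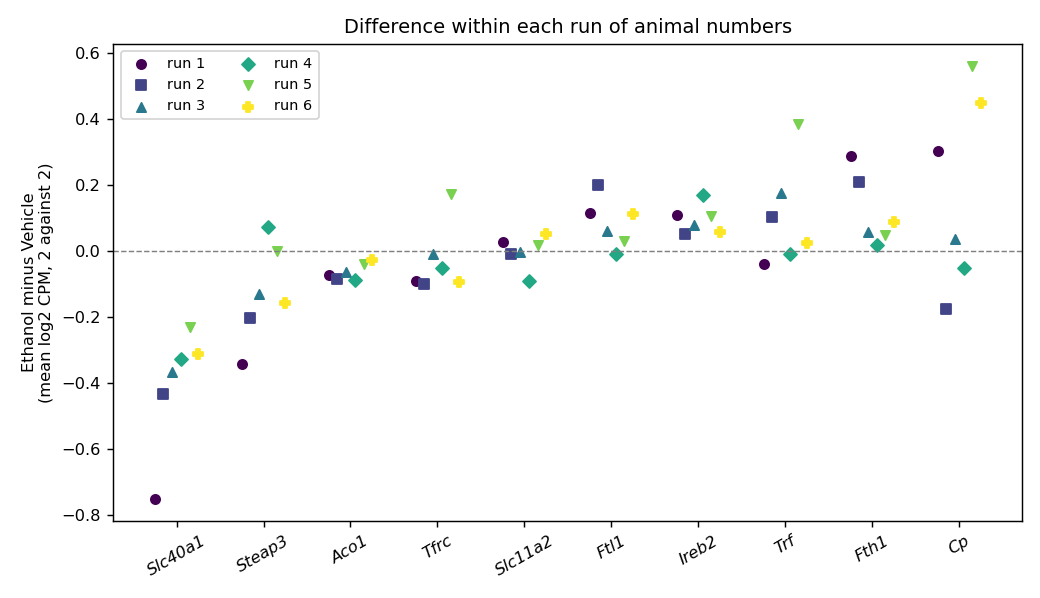
Difference in mean log2 CPM between 2 Ethanol and 2 Vehicle libraries of each run of animal numbers, for the 10 genes ordered by log2 fold change. Slc40a1 and Aco1 were below 0 and Ireb2 and Fth1 above 0 in all 6 runs, and Cp spread from -0.18 to 0.56.

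How the 10 genes vary from animal to animal was examined after the treatment means were removed, over the 20 libraries with Ttr, which leaves out what the choice of genes used. All 45 pairs were correlated, with p-values from 100000 permutations adjusted over the 45 (Benjamini-Hochberg), and 9 pairs passed 0.05 by Pearson's r. The points share their libraries and library scaling. Libraries were permuted freely across runs and ages, so the p-values do not allow for likeness within a run and may be too small. The r within runs is given beside them without a test. The share of pairs that would pass among genes in general was not computed, so the 9 are not read as particular to iron genes. Ftl1 and Ireb2 had the strongest relation, a negative one, at r = -0.81 (permutation adjusted p = 0.00135) and rho = -0.75 (permutation adjusted p = 0.0153). It was -0.71 without the 2 libraries farthest from the median of Ftl1 and -0.75 with run means removed. Each of the 2 genes was closer still to genes outside the set, Ftl1 to Rpl28 (r = 0.95) and Ireb2 to Tnks2 (r = 0.94).

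The ferritin chains went together, at r = 0.69 (permutation adjusted p = 0.0178) and rho = 0.66 (permutation adjusted p = 0.0299), with r = 0.63 without the 2 farthest libraries and 0.66 within runs. Fth1 and Ireb2 went apart, at r = -0.62 (permutation adjusted p = 0.0179) and rho = -0.60 (permutation adjusted p = 0.0414), with -0.61 without the farthest libraries and -0.63 within runs. The 2 regulators were also inversely related, with r = -0.62 (permutation adjusted p = 0.0179) and rho = -0.63 (permutation adjusted p = 0.03), -0.53 without the farthest libraries and -0.65 within runs. Tfrc followed Ireb2, at r = 0.67 (permutation adjusted p = 0.0179) and rho = 0.65 (permutation adjusted p = 0.0299), which was 0.66 without the farthest libraries and 0.49 within runs. Trf and Cp had r = 0.66 (permutation adjusted p = 0.0179) and rho = 0.53 (permutation adjusted p = 0.0695). Their r fell to 0.31 without the 2 libraries farthest from the median of Trf and was 0.47 within runs.

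The other 3 pairs were Tfrc with Aco1, Slc11a2 with Cp and Trf with Slc11a2. Tfrc and Aco1 had r = -0.57 (permutation adjusted p = 0.0449) and rho = -0.66 (permutation adjusted p = 0.0299), with -0.63 without the farthest libraries and -0.52 within runs. Slc11a2 and Cp had r = 0.64 (permutation adjusted p = 0.0179) and rho = 0.53 (permutation adjusted p = 0.0695), with 0.59 without the farthest libraries and 0.53 within runs. Trf and Slc11a2 had r = 0.61 (permutation adjusted p = 0.0179) and rho = 0.48 (permutation adjusted p = 0.101), and the relation did not hold within runs, where r was 0.18. Trf with Fth1, Fth1 with Cp and Trf with Aco1 passed by rho only (0.58, 0.58 and 0.59, permutation adjusted p = 0.04435 for each). Within runs their r was 0.36, 0.26 and -0.05.

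**Figure D3:**
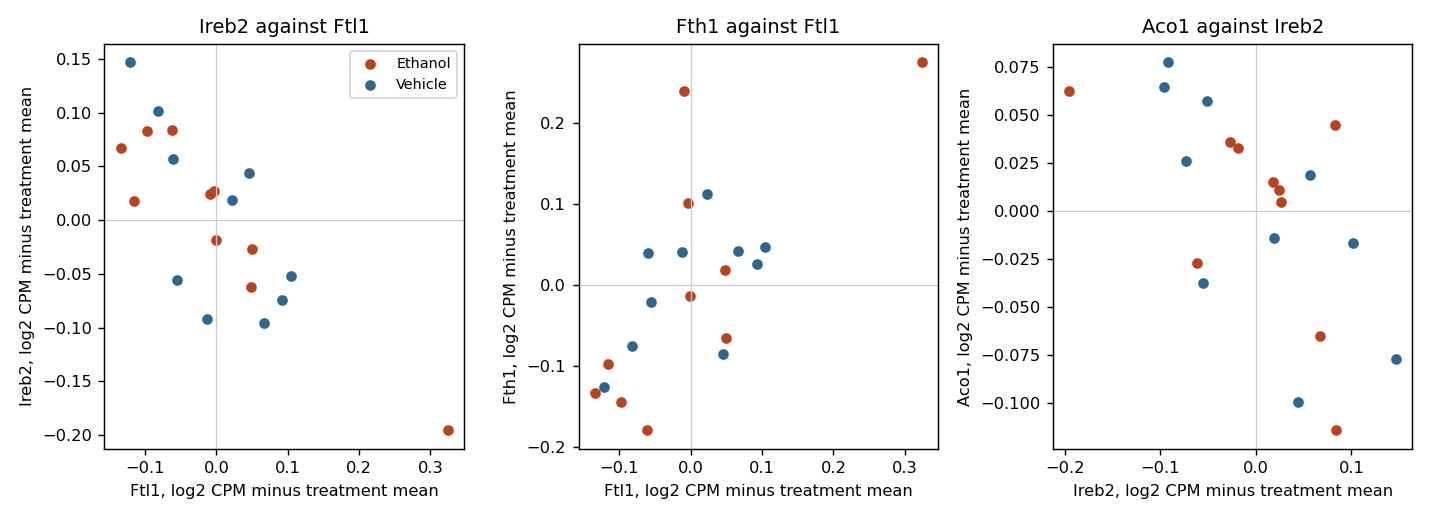
Log2 CPM minus the treatment mean for 3 pairs of genes in the 10 Ethanol and 10 Vehicle libraries with Ttr. Ireb2 was inversely related to Ftl1 (r = -0.81), Fth1 went with Ftl1 (r = 0.69) and Aco1 was inversely related to Ireb2 (r = -0.62), and the Ethanol library at the far right of the first 2 panels is X4673.

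The genes whose pattern was most like each member, over the same 20 libraries and 15414 genes, differed between members. Ftl1 was closest to the ribosomal protein genes Rpl28 (r = 0.95), Rps10 (0.95) and Rpl18 (0.94). Fth1 was closest to Mt1, which encodes a metallothionein, a metal-binding protein (r = 0.88), then Angptl4 and Ech1 (both 0.82). Ireb2 was closest to Tnks2 (r = 0.94), Ap4e1 and Smg1 (both 0.92). Cp was closest to Glul, which encodes glutamine synthetase of astrocytes (r = 0.96), and to Cyp1b1 and Nedd9 (both 0.91). Trf was closest to Lrrc25 (r = 0.86), Syk (0.85) and Masp1 (0.82). Slc40a1 was closest to Gm45902 (r = 0.82), Me2 and Hspa4 (both 0.78), and Aco1 to Pgap2, A730049H05Rik and Ttc4 (all 0.85). For Tfrc the leading genes were 4632404H12Rik and Luzp1 (both 0.84), and for Slc11a2 and Steap3 the highest r was 0.77 (Gpkow) and 0.76 (Gm37963). These genes lead a ranking of all 15414 and carry no test.

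The rest of the iron pathway was read from 6 lists with 77 genes that are not among the 10. Of 72 tested, 11 rose, 8 fell and 53 did not pass (edgeR quasi-likelihood test, Benjamini-Hochberg adjusted over all 17736 genes), and their median log2 fold change was -0.02, against -0.01 for all genes. Over all genes tested, 9.07% were higher, 5.8% lower and 14.9% past the threshold in either direction, and the counts of each list below stand beside the same shares. The lists were written with earlier results of these data known. Nothing is therefore read from the counts against those shares, and the p-values of the listed genes are not independent evidence. The calls of 6 of these genes (Slc39a14, Slc39a8, Flvcr2, Fbxl5, Alas1 and Ciao1) held in all 39 alternative settings, and each of the other 13 was lost when at least 1 run was left out.

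Other uptake genes had 4 risen and 1 fallen of 15. Slc39a14 (ZIP14), which imports iron not bound to transferrin, had 23.5, 27.4 and 32.2 CPM in Ethanol and 21.7, 23.5 and 27.3 CPM in Vehicle. All 12 Ethanol libraries were above the Vehicle median, and it rose by 0.22 (SE 0.04, edgeR adjusted p = 0.00102). Its relative Slc39a8 (ZIP8) fell by 0.23 (SE 0.05, edgeR adjusted p = 0.00112), with 23.3, 25.9 and 29.3 CPM in Ethanol and 24.7, 31.4 and 34.4 CPM in Vehicle. No Ethanol library reached the Vehicle median. Cd163, the macrophage receptor for hemoglobin bound to haptoglobin, rose by 0.53 (SE 0.15, edgeR adjusted p = 0.0149), while Hp, haptoglobin itself, did not pass at 0.17 (SE 0.29). Hpx, hemopexin, which binds heme, rose by 0.54 (SE 0.18, edgeR adjusted p = 0.0364), although it was below 1 CPM throughout and its call was lost without any 1 of 10 libraries (0.45 to 0.59). Lrp1, which takes up heme bound to hemopexin, did not pass at 0.07 (SE 0.03). Lcn2, lipocalin 2, which binds iron carried by siderophores, rose by 2.71 (SE 0.77, edgeR adjusted p = 0.0199), with 0.152, 4.0 and 39.3 CPM in Ethanol and 0.185, 0.407 and 5.20 CPM in Vehicle. Only 4 Ethanol libraries were above the Vehicle range, and without Ethanol X4760 the difference was 1.76 and no longer past the threshold.

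Other storage genes did not move past the test. Of 4 tested, Pcbp2 and Pcbp1, the iron chaperones that load ferritin, differed by -0.01 (SE 0.03) and -0.03 (SE 0.03), and Ncoa4, the receptor that takes ferritin to the lysosome, differed by -0.02 (SE 0.03). Ftmt, mitochondrial ferritin, had 0 counts in all 24 libraries.

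Other export genes had 1 fallen of 4. Flvcr2, described as a heme transporter and since then as a choline transporter of brain endothelium, fell by 0.25 (SE 0.04, edgeR adjusted p = 0.000176). It had 8.33, 9.26 and 10.7 CPM in Ethanol and 10.1, 11.2 and 12.1 CPM in Vehicle, and 10 of 12 Ethanol libraries were below the lowest Vehicle library, close to the pattern of Slc40a1. Heph, a ferroxidase that pairs with ferroportin, differed by -0.20 (SE 0.12) and did not pass, nor did Flvcr1 at 0.08 (SE 0.04). Hamp, the gene for hepcidin, the hormone that removes ferroportin from the cell surface, was at or below 0.0734 CPM in Ethanol and 0.0616 CPM in Vehicle and was filtered.

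Regulators of iron balance had 2 risen and 2 fallen of 11. Fbxl5, the iron-sensing subunit of the ligase that degrades IRP2, rose by 0.13 (SE 0.03, edgeR adjusted p = 0.0047), with 53.4, 58.0 and 64.5 CPM in Ethanol and 49.1, 54.2 and 55.8 CPM in Vehicle. Of the Ethanol libraries, 10 were above the whole Vehicle range. Cul1, a scaffold of the same ligase, fell by 0.08 (SE 0.03, edgeR adjusted p = 0.0313) and its call was lost without any 1 of Ethanol X4694 and X4765 and Vehicle X4679, X4686 and X4761 (-0.09 to -0.07 over all libraries left out in turn). Bmp2, an endothelial signal that raises hepcidin in liver, rose by 0.51 (SE 0.13, edgeR adjusted p = 0.00835), with 1.22, 1.86 and 2.73 CPM in Ethanol and 1.01, 1.29 and 1.76 CPM in Vehicle. Neo1, a hemojuvelin receptor better known in axon guidance, fell by 0.11 (SE 0.03, edgeR adjusted p = 0.033), and its call was lost without Ethanol X4674, Vehicle X4686 or Vehicle X4761 (-0.12 to -0.10 over all libraries left out in turn).

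In heme metabolism 1 of 14 rose and 3 fell. Alas1, the rate-limiting enzyme of heme synthesis outside red cells, rose by 0.11 (SE 0.03, edgeR adjusted p = 0.00647), and all 12 Ethanol libraries were above the Vehicle median. Fech, ferrochelatase, which inserts iron as the last step of synthesis, fell by 0.10 (SE 0.03, edgeR adjusted p = 0.0238). Blvra, biliverdin reductase, fell by 0.16 (SE 0.04, edgeR adjusted p = 0.0113), and Slc48a1, which moves heme out of lysosomes, fell by 0.08 (SE 0.02, edgeR adjusted p = 0.0125). Hmox1, the inducible heme oxygenase that frees iron from heme, did not pass, at 0.25 (SE 0.16). The red cell genes set beside these had 1 of 6 tested lower (Slc4a1 at -1.12). Of those that did not pass, the hemoglobin genes lay between -0.86 (Hbb-bt) and -0.55 (Hbb-bs), and Klf1 was at 0.04. The red cell sum was 24.1, 65.6 and 291 CPM in Ethanol and 63.1, 124 and 248 CPM in Vehicle, so hemoglobin mRNA was present in this perfused tissue.

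Of the mitochondrial iron and iron-sulfur cluster genes, 4 of 24 rose and 1 fell. Ciao1 and Ciao2b belong to the complex that hands iron-sulfur clusters to cytosolic and nuclear proteins. Ciao1 had 40.9, 45.4 and 48.0 CPM in Ethanol and 36.0, 38.7 and 41.7 CPM in Vehicle and rose by 0.21 (SE 0.03, edgeR adjusted p = 0.000134), with all 12 Ethanol libraries above the Vehicle median. Ciao2b rose by 0.15 (SE 0.04, edgeR adjusted p = 0.0236). Isca2, a late cluster assembly protein, rose by 0.09 (SE 0.03, edgeR adjusted p = 0.0336) and Hspa9, the chaperone that helps release clusters from their scaffold, by 0.07 (SE 0.03, edgeR adjusted p = 0.0474), with calls lost without any 1 of 10 libraries for Isca2 (0.07 to 0.10) and any 1 of 18 for Hspa9 (0.06 to 0.08). Cisd3, a cluster protein of the mitochondrial matrix, fell by 0.23 (SE 0.06, edgeR adjusted p = 0.0146).

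**Figure D4:**
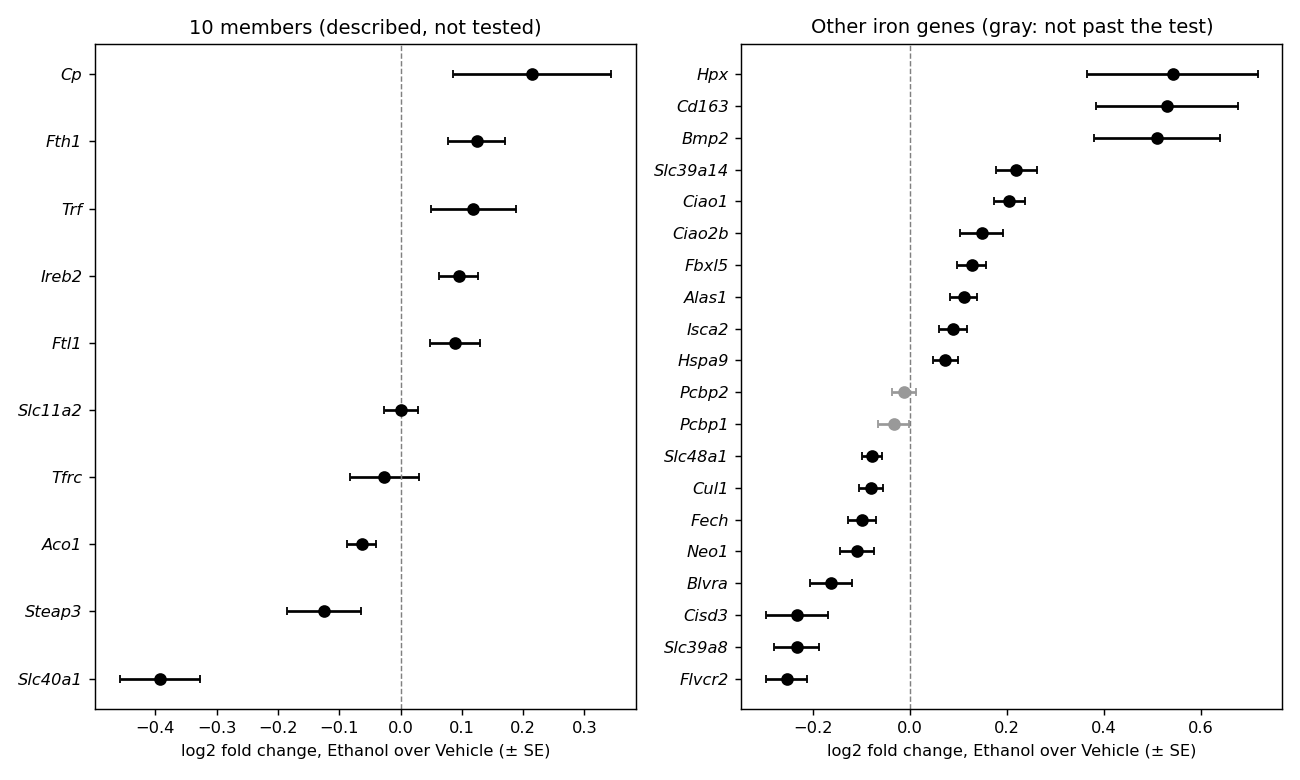
Log2 fold change of Ethanol over Vehicle with SE bars for the 10 genes (left) and for 20 named genes of the other iron lists (right, gray where the test was not passed, Lcn2 at 2.71 left off). Slc40a1 at -0.39 and Flvcr2 at -0.25 were the lowest of each panel.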

How the data were processed

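From paired-end TruSeq mRNA reads the authors made estimated counts for each gene with nf-core/rnaseq. STAR, Salmon, limma and the build GRCm39 are named in the submitters' processing notes. Annotation release, strand option and the versions of STAR, Salmon and limma were not given in the sources used here. Labels and paper name different homogenizers and RNA kits. Counts were rounded (10.9% of values lay over 0.01 from a whole number), filtered with filterByExpr, scaled by TMM (factors 0.982 to 1.01) and fitted with edgeR 4.0.16 in R 4.3.3 (glmQLFit, robust, and glmQLFTest, 22 residual degrees of freedom), without covariates over both ages. Gene rows numbered 55416. No 2 libraries agreed within sampling noise, the lowest mean chi-square of 276 pairs being 5.23 per gene. The fit was tested on simulated counts. It recovered 68% and 66% of genes changed by factors of 0.8 and 1.25, and 93.5% and 96% at 0.5 and 2. Of the unchanged genes 7 were called. The simulation changed 46 to 50 tested genes at each factor and held no differences between runs or ages. In the data 2636 genes were called, so these rates need not carry over to the data. Smaller changes were not simulated, so a gene that did not pass may still differ. Levels are CPM, and correlations used log2 CPM in Python 3.11.15 with scipy 1.17.1.

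The 10 members and all lists were chosen with earlier results of these data known. Genes named were the members, up to 4 genes per direction with the smallest p in each list or the 2 most highly expressed where none passed, and for likeness the 3 with the highest r. Further iron genes that did not pass (Hp, Lrp1, Ncoa4, Heph, Flvcr1, Hamp, Ftmt and Hmox1) were named for their role after their values were seen. Alternatives were limma-trend and limma-voom (limma 3.58.1), DESeq2 1.42.0, upper-quartile factors and RLE factors, a fit with no filter, a strict filter (over 1 CPM in 12 libraries), runs as a block, and leaving out each run, each library or the 4 libraries low in Ttr.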

Additional observations from a re-analysis of the deposited data

How the results depend on the processing

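No result changed direction under any of the 39 alternatives apart from Tfrc, Slc11a2 and Pcbp2, which lay near 0 and were never past the threshold. Of the 10 genes, 1 to 4 were past the threshold, and 1 to 3 when 1 library was left out. Slc40a1 was past it in all, and Ireb2 lost its call in 23. These calls describe how far the values depend on the processing. They are not evidence for a difference, since the genes were chosen by this contrast. The called genes numbered 1730 without run 3 and 1602 without run 4, against 2636. Genes called lower were 662 with no filter, 612 when the 4 Ttr-poor libraries were left out, 616 without run 1, 612 without run 3 and 499 without run 4, against 1028. Of the other iron genes, 19 were called, against 11 with no filter, 10 without the 4 libraries low in Ttr, 11 without run 1, 7 without run 3 and 11 without run 5. Those called higher were 7 without the 4 libraries, 5 without run 1, 4 without run 3 and 6 without run 5, against 11, and 7 to 11 when 1 library was left out, with 7 without Ethanol X4760. Those called lower were 3 with no filter, 3 without the 4 libraries, 3 without run 3 and 5 without run 4, 5 or 6, against 8. Fewer samples remained in each setting that left libraries out, and beyond that the cause was not tested. Slc39a14, Slc39a8, Flvcr2, Fbxl5, Alas1 and Ciao1 were past the threshold in every alternative run. Runs as a block gave 1982 higher and 1363 lower, and 4 of the 10 genes past the threshold (Fth1 and Aco1 beside Slc40a1 and Ireb2). Genes higher were 61.0% of calls, and 49.6% under upper-quartile factors. Ethanol and Vehicle animals share no number, so animals were not paired one by one.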

Other observations

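Neuronal marker genes were counted beside the iron genes. Of 8 granule neuron and precursor genes, Atoh1, which marks dividing precursors, rose by 0.20 and Barhl1 fell by 0.18 on the log2 scale (edgeR adjusted p = 0.0474 and 0.0442). The sum of the list was 2348, 2728 and 3126 CPM (lowest, median and highest) in Ethanol and 2336, 2646 and 3107 CPM in Vehicle. Of 5 Purkinje cell genes, Car8 fell by 0.17 (edgeR adjusted p = 0.000848), with a list sum of 1107, 1175 and 1351 CPM in Ethanol and 1185, 1298 and 1492 CPM in Vehicle, so that the Ethanol median was below the lowest Vehicle library. Over all genes tested 14.9% were past the threshold.

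Mt1, the gene whose animal-to-animal pattern was closest to that of Fth1, was chosen after its values were seen. It averaged 28.9 CPM in Ethanol and 22.0 CPM in Vehicle and was higher by 0.39 on the log2 scale (edgeR adjusted p = 0.0256).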
